A study of Homo sapiens with 9 samples.

Results

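The genes described here are 8 receptors and regulators of mitophagy, BNIP3, BNIP3L, FUNDC1, FUNDC2, BCL2L13, PINK1, PHB2 and PGAM5, found by their symbols among the 60683 genes of a raw count table. All 8 had counts and were among the 22672 genes tested. RNA was sequenced from Hep3B cells, a human hepatocellular carcinoma line, to ask which hypoxia-induced transcripts are lowered by 32-134D, a small-molecule inhibitor of the hypoxia-inducible factors (HIFs). The cultures were kept for 24 hours with vehicle (DMSO) at 20% O2, with vehicle at 1% O2 or with 32-134D at 1% O2, and each of the 3 groups had 3 libraries. No group received 32-134D at 20% O2, so an action of the compound outside hypoxia cannot be told apart from its action on the hypoxic response. All libraries came from 1 cell line.

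Mitophagy is the removal of mitochondria by autophagy. Receptors in the outer mitochondrial membrane, such as BNIP3, BNIP3L (also called NIX), FUNDC1 and BCL2L13, bind proteins of the LC3 and GABARAP family on the growing autophagosome directly. In a separate branch the kinase PINK1 builds up on damaged mitochondria, where it phosphorylates ubiquitin, and ubiquitin chains on their surface are bound by cargo adaptors. BNIP3 and BNIP3L are known HIF target genes, and hypoxic cells are known to use them to reduce the mass of mitochondria.

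HIFs bind DNA at hypoxia response elements with the core ACGTG or GCGTG. Because several members moved with oxygen, the 300 bases around the transcription start (250 before and 50 after) were read from RefSeq promoters on GRCh38.p14 for the 6 of 8 members with an entry. BNIP3L and PINK1 had none. The promoter of BNIP3 at chr10:131981874-131982173 (minus strand) is shown because this gene had the largest change of the 8. The promoters of FUNDC2 at chrX:155026594-155026893 (plus strand) and FUNDC1 at chrX:44542810-44543109 (minus strand) are shown because they belong to 2 related genes with different changes. Each reads 5′ to 3′ along the gene, with ACGTG and GCGTG on either strand in capitals (CACGT and CACGC when on the opposite strand).
BNIP3: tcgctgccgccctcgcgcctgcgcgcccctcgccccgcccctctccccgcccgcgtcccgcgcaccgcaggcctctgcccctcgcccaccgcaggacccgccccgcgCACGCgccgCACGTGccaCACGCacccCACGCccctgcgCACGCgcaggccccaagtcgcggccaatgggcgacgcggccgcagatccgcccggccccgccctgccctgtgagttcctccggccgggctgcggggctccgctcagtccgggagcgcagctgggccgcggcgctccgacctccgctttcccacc
FUNDC2: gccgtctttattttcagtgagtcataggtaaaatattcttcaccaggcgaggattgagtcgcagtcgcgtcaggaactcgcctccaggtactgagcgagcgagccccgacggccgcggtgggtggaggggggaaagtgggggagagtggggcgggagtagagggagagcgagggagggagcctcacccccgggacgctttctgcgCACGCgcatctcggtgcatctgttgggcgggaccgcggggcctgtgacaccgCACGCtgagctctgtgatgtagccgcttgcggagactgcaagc
FUNDC1: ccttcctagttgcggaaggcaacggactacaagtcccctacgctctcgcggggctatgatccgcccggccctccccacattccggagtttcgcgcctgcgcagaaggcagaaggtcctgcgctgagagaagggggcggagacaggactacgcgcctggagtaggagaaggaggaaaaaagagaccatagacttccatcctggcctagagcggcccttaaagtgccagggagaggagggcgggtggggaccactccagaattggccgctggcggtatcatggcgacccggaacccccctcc
The BNIP3 window held 2 matches to ACGTG and 4 to GCGTG. The 2 ACGTG matches overlap in 1 palindrome, CACGTG, and so the window held 5 separate sites. Among 35116 promoters of this length, 21.4% held ACGTG, 36.5% held GCGTG and 48.4% held either, 7.26% held CACGTG, and 0.994% held 5 or more separate sites. The FUNDC2 window held 2 GCGTG matches and the FUNDC1 window held 0 of either. PGAM5 had 2 GCGTG matches, BCL2L13 had 1 in 1 of its 3 annotated starts, and PHB2 had 0 in both of its starts. These matches describe letters in a window and say nothing on binding.

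Total counts ran from 6013980 to 40549699, with a median of 28530741. Replicate 2 of vehicle at 20% O2 was the smallest library, and replicate 3 of 32-134D differed most from its group, as the chi-square of its counts against its 2 partners was 36.4 and 32.5 per degree of freedom, the largest of the 9 pairs (the smallest was 1.62). All 10 hepatocyte markers had counts, with a sum of 2.13% to 2.26% of each library in vehicle at 20% O2, 1.41% to 1.72% in vehicle at 1% O2 and 1.27% to 2.01% with 32-134D. At an FDR below 0.05 and a fold change above 1.5, hypoxia raised 0 of these and lowered 2 (all genes 19.5% and 20.3%). With 32-134D 1 was higher and 4 were lower (all genes 16.2% and 13.7%). APOB had log2 fold changes of −3.47 in hypoxia and 3.12 with 32-134D (edgeR FDR 7.60e-10 and 5.98e-09). The 4 lower with 32-134D were TTR (log2 fold change −0.92), TF (−0.80), FGB (−0.98) and AHSG (−0.91). Of the 5 endothelial markers VWF and TEK were at 0 in every library, as was the T cell marker CD3E. The endothelial sum, mostly PECAM1, was 0.669 to 1.07 CPM (counts scaled to library size), 0.0849 to 0.343 and 0.561 to 1.33 in the same order, and PECAM1 had log2 fold changes of −1.88 in hypoxia and 1.93 with 32-134D (edgeR FDR 0.00650 and 0.00362). The 5 leukocyte markers, mostly LYZ, summed to 28.4 to 36.0 CPM in vehicle at 20% O2, 8.41 to 10.5 in vehicle at 1% O2 and 14.8 to 25.0 with 32-134D. The 5 fibroblast markers, mostly PDGFRB, summed to 38.2 to 41.6, 15.5 to 16.6 and 37.0 to 45.1 in the same order, and the part of these markers in the results below was not tested.

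Hypoxia raised 4 of the 8 members past both thresholds, BNIP3, BNIP3L, FUNDC2 and PINK1, and lowered 0. Over all genes tested 19.5% were called higher and 20.3% lower, and a call needed a Benjamini-Hochberg FDR below 0.05 from edgeR's quasi-likelihood test and a fold change above 1.5. The median log2 fold change of the 8 was 0.75, against 0.001 over all genes. The members were chosen with earlier results of these data known, so their contrast with all genes is descriptive and not a test. The 3 libraries of each condition did not overlap for 6 members, all higher in hypoxia, where 32.3% of all genes were higher and 28.1% lower without overlap. With 32-134D at 1% O2, the 4 members raised by hypoxia were lowered past both thresholds and 0 were raised, beside 13.7% of all genes called lower and 16.2% called higher. The median log2 fold change was −0.66, against −0.01 over all genes. In TMM-scaled CPM 7 members were lower without overlap, as were 30.8% of all genes (25.4% were higher). Among them were FUNDC1, BCL2L13 and PGAM5, which were not called. As TPM (per length, scaled to the same total in every library) the libraries of these genes overlapped. PGAM5, for example, ranged from 108 to 118 TPM in vehicle at 1% O2 and from 111 to 125 with 32-134D. The vehicle libraries at 1% O2 enter both comparisons, which are therefore not independent. In bulk RNA fewer cells with a transcript and less of it per cell cannot be told apart. The counts of 4 and 4 were the same without the 2 libraries that stood apart.

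**Figure D1:**
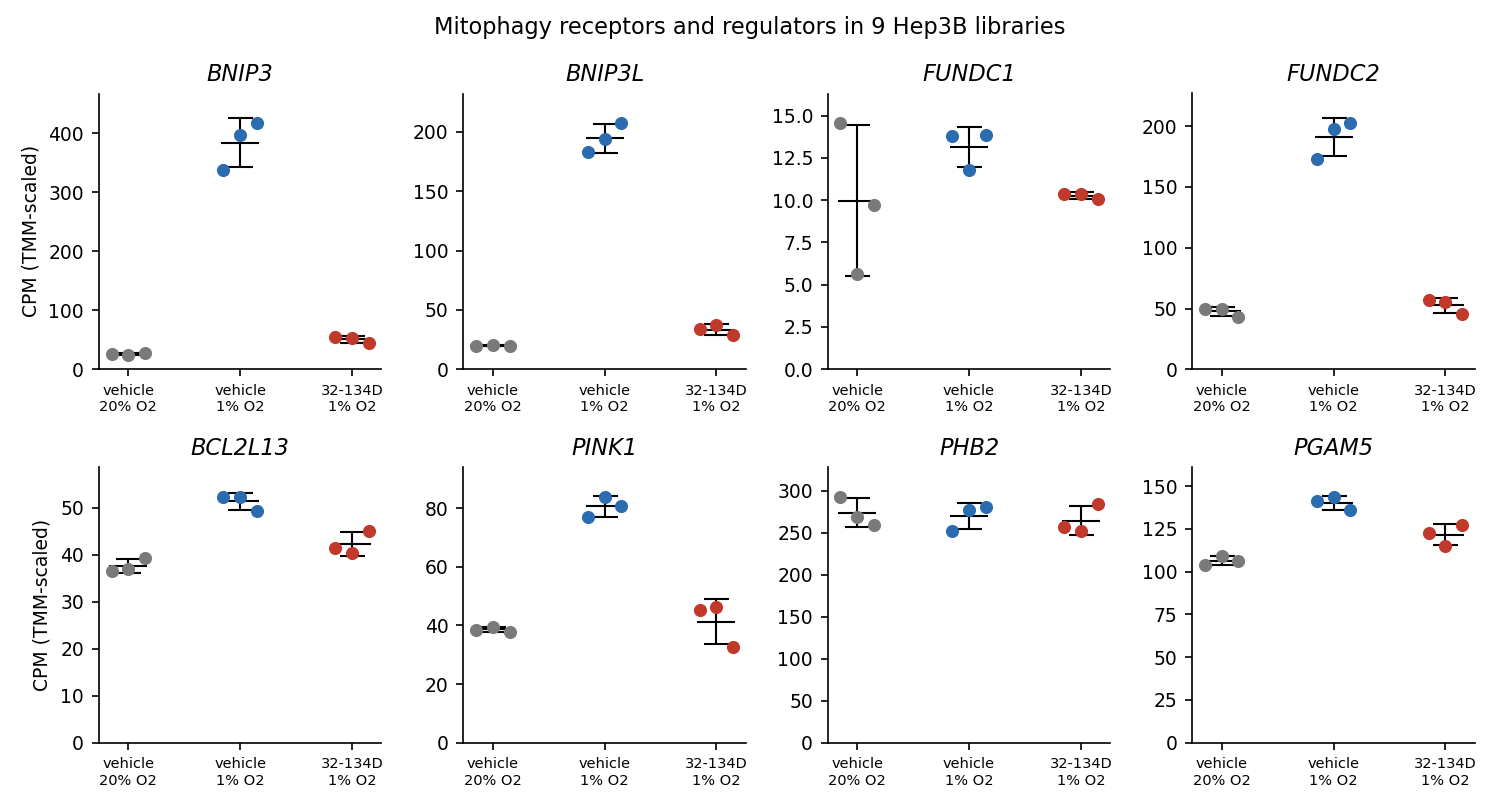
CPM (TMM-scaled, y axis from 0 in each panel) of the 8 members in each library (points, replicates 1 to 3 from left to right) of vehicle at 20% O2, vehicle at 1% O2 and 32-134D at 1% O2 (x axis), with mean and SD. BNIP3, BNIP3L, FUNDC2 and PINK1 lie above every other library in the middle group, whereas the PHB2 points of all 3 groups lie between 252 and 293.

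BNIP3 (ENSG00000176171, chromosome 10, 131966455 to 131982013, minus strand, GRCh38) encodes a BH3-like protein of the outer membrane that recruits LC3. In vehicle at 20% O2 its libraries held 25.8, 24.2 and 26.7 CPM scaled by the TMM method, and in vehicle at 1% O2 they held 338, 397 and 417 CPM. With 32-134D at 1% O2 they held 54.6, 53.3 and 44.3 CPM. The 3 groups did not overlap, and the compound libraries lay far closer to the normoxic ones than to the hypoxic ones. Hypoxia raised BNIP3 by a log2 fold change of 3.90 (SE 0.11, edgeR FDR 2.84e-12), or 14.9-fold, which ranked 246 from the top of all genes tested. 32-134D lowered it by a log2 fold change of −2.92 (SE 0.10, edgeR FDR 7.98e-11), a 7.56-fold difference, rank 84 from the bottom.

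BNIP3L (ENSG00000104765, chromosome 8, 26382898 to 26505636, plus strand), the paralog that also clears mitochondria from maturing red cells, held 19.5, 20.3 and 19.6 CPM in vehicle at 20% O2. Its hypoxic libraries held 183, 194 and 208 CPM, and those with 32-134D held 34.1, 37.4 and 28.8 CPM. The groups again did not overlap, in the same order as for BNIP3. The log2 fold change was 3.30 in hypoxia (SE 0.10, edgeR FDR 5.69e-12), or 9.86-fold, and −2.54 with 32-134D (SE 0.09, edgeR FDR 1.90e-10).

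FUNDC2 (ENSG00000165775, chromosome X, 155025980 to 155060303, plus strand) encodes an outer membrane protein related to the receptor FUNDC1. It held 50.0, 49.5 and 43.3 CPM in vehicle at 20% O2, 173, 198 and 203 CPM in vehicle at 1% O2, and 56.8, 55.4 and 45.7 CPM with 32-134D. The hypoxic libraries stood above all others, whereas the compound and normoxic libraries overlapped. FUNDC2 rose 4.04-fold in hypoxia (log2 fold change 2.01, SE 0.10, edgeR FDR 6.14e-10) and fell 3.62-fold with 32-134D (log2 fold change −1.86, SE 0.10, edgeR FDR 3.56e-09).

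FUNDC1 (ENSG00000069509, chromosome X, 44523639 to 44543001, minus strand), the receptor whose phosphorylation by SRC and CK2 is known to limit mitophagy in normoxia, did not pass the test in any comparison. Its libraries held 14.6, 5.65 and 9.70 CPM in vehicle at 20% O2, 13.8, 11.8 and 13.8 CPM in vehicle at 1% O2, and 10.4, 10.4 and 10.1 CPM with 32-134D. The normoxic libraries spread over both other groups, and replicate 2, the lowest, had 36 reads on the gene. The log2 fold change was 0.35 in hypoxia (95% confidence interval −0.09 to 0.78, edgeR FDR 0.169) and −0.36 with 32-134D (interval −0.78 to 0.06, edgeR FDR 0.150). Without replicate 1 of vehicle at 20% O2, the highest, the hypoxic log2 fold change was 0.62 and passed both thresholds (edgeR FDR 0.0120), and without replicate 2 it was 0.14, so the value rests on single normoxic libraries.

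PINK1 (ENSG00000158828, chromosome 1, 20633455 to 20651511, plus strand), the kinase of the ubiquitin branch, held 38.5, 39.6 and 37.8 CPM in vehicle at 20% O2. It held 77.0, 83.9 and 80.8 CPM in vehicle at 1% O2, and 45.1, 46.3 and 32.6 CPM with 32-134D. The hypoxic libraries lay above the rest, and replicate 3 of 32-134D lay below every normoxic library. The log2 fold change was 1.06 in hypoxia (SE 0.11, edgeR FDR 1.25e-06), a 2.09-fold rise, and −0.96 with 32-134D (SE 0.11, edgeR FDR 4.43e-06). Reads of PINK1 and of PINK1-AS, a gene on the opposite strand that overlaps it, cannot be told apart where the counting did not use strand, and the setting is not given in the sources used here. PINK1-AS had 3479 reads in all against 12728 for PINK1, and its log2 fold changes had the opposite signs, −0.67 in hypoxia (edgeR FDR 1.39e-04) and 0.58 with 32-134D (edgeR FDR 4.63e-04).

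BCL2L13 (ENSG00000099968, chromosome 22, 17628855 to 17730855, plus strand), a BCL2-family receptor, and PGAM5 (ENSG00000247077, chromosome 12, 132710819 to 132722734, plus strand), a mitochondrial phosphatase that dephosphorylates FUNDC1, moved by less than 1.5-fold. BCL2L13 held 36.6, 36.9 and 39.2 CPM in vehicle at 20% O2, 52.3, 52.3 and 49.3 CPM in vehicle at 1% O2 and 41.4, 40.2 and 45.1 CPM with 32-134D. PGAM5 held 103.8, 109 and 106 CPM, then 141, 144 and 136 CPM, and 122, 115 and 127 CPM in the same order. For both genes, with TMM scaling, the hypoxic libraries lay above the other groups and the compound libraries lay between. The hypoxic log2 fold changes were 0.45 for BCL2L13 (SE 0.08, edgeR FDR 1.95e-04) and 0.40 for PGAM5 (SE 0.07, edgeR FDR 1.34e-04), under the fold change threshold, and 27.9% of all genes were higher at this FDR. With 32-134D they were −0.28 (edgeR FDR 0.00665) and −0.21 (edgeR FDR 0.0188), and 25.5% of all genes were lower at this FDR. Under scaling by total library size, which moved the median of all genes by −0.21 in hypoxia and 0.18 with 32-134D, the hypoxic differences were 0.23 and 0.19 (edgeR FDR 0.0244 and 0.0328) and those with 32-134D were −0.09 and −0.02 (edgeR FDR 0.351 and 0.833).

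PHB2 (ENSG00000215021, chromosome 12, 6965327 to 6970825, minus strand), an inner membrane prohibitin that binds LC3 once the outer membrane is ruptured, did not pass the test in any comparison with TMM scaling. It held 293, 269 and 260.0 CPM in vehicle at 20% O2, 252, 277 and 281 CPM in vehicle at 1% O2, and 257, 253 and 284 CPM with 32-134D. All 3 groups overlapped. The 95% confidence interval of the log2 fold change ran from −0.19 to 0.14 in hypoxia (edgeR FDR 0.835) and from −0.19 to 0.13 with 32-134D (edgeR FDR 0.787). Under scaling by total library size the values were −0.24 in hypoxia (edgeR FDR 0.0155) and 0.16 with 32-134D, and with upper-quartile scaling they were −0.22 (edgeR FDR 0.0339) and 0.09. The FDR of both hypoxic values was below 0.05 and their fold change under 1.5, and the 2 values with 32-134D did not pass the FDR.

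To ask which members were back at their normoxic level, 32-134D at 1% O2 was compared with vehicle at 20% O2. BNIP3 and BNIP3L stayed higher past both thresholds and 0 members were lower, where 3% of all genes were called higher and 0.516% lower. BNIP3 was 1.97-fold higher (log2 fold change 0.98, SE 0.10, edgeR FDR 2.64e-05) and BNIP3L was 1.70-fold higher (0.76, SE 0.10, edgeR FDR 1.68e-04). FUNDC2 differed by a log2 fold change of 0.16 (95% confidence interval −0.06 to 0.37, edgeR FDR 0.367) and PINK1 by 0.10 (interval −0.14 to 0.35, edgeR FDR 0.632). The values of PGAM5 and BCL2L13 were 0.19 (edgeR FDR 0.0885) and 0.16 (edgeR FDR 0.217), and those of FUNDC1 and PHB2 were −0.01 and −0.05. Libraries of the groups did not overlap for 4 members, BNIP3, BNIP3L, BCL2L13 and PGAM5, all higher with 32-134D, where 17% of all genes were higher and 12.8% lower without overlap. Without replicate 3 of 32-134D the values were 1.06 for BNIP3, 0.86 for BNIP3L, 0.25 for FUNDC2 and 0.25 for PINK1, and the calls were the same.

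**Figure D2:**
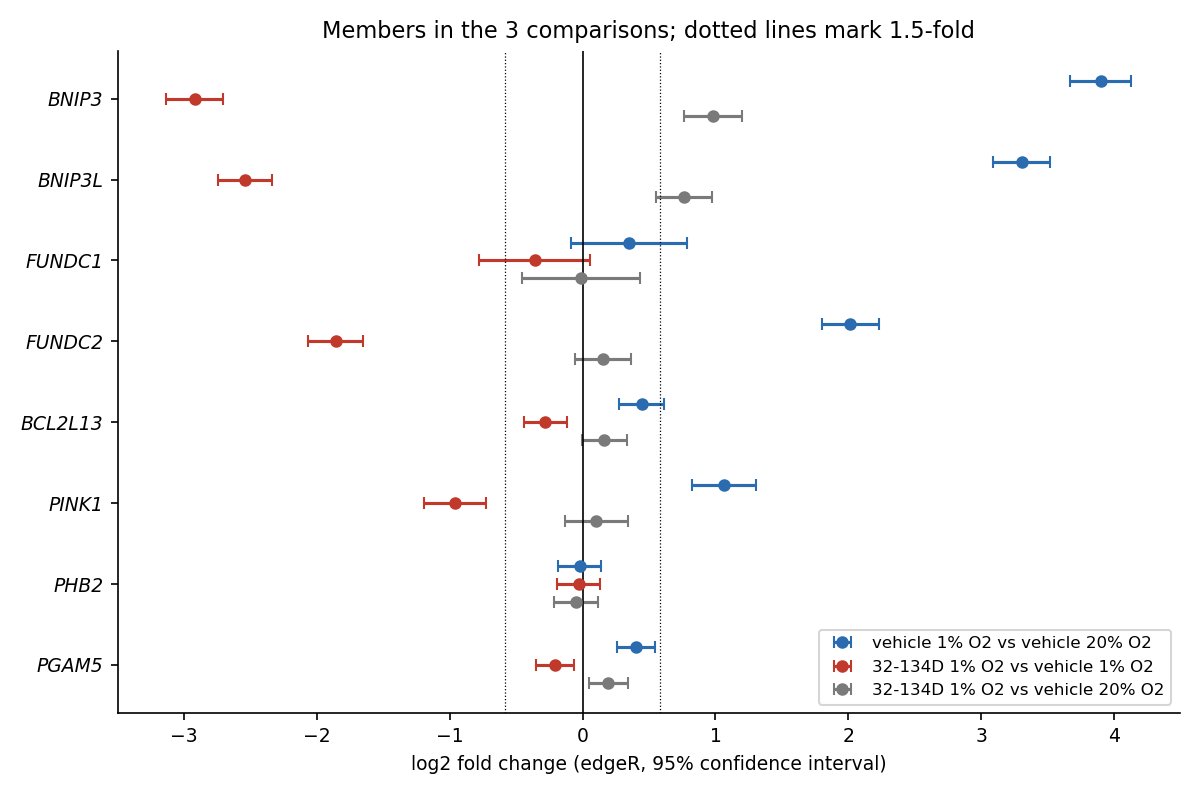
Log2 fold changes (x axis, with 95% confidence intervals from edgeR) of the 8 members (y axis) for vehicle at 1% O2 against vehicle at 20% O2 (blue), 32-134D against vehicle at 1% O2 (red) and 32-134D at 1% O2 against vehicle at 20% O2 (grey). BNIP3, BNIP3L, FUNDC2 and PINK1 lie right of the 1.5-fold line in blue and left of it in red, and the grey points of BNIP3 and BNIP3L stay right of it at 0.98 and 0.76.

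Ratios of raw counts within a library do not depend on how libraries are scaled to each other. The ratio of BNIP3 to BNIP3L was 1.32, 1.19 and 1.36 in vehicle at 20% O2, 1.85, 2.05 and 2.01 in vehicle at 1% O2, and 1.60, 1.43 and 1.54 with 32-134D. The mean ratio was 1.52-fold higher in hypoxia than in normoxia and 1.29-fold lower with the compound than without it, and the groups did not overlap. The ratio of FUNDC1 to FUNDC2 was 0.291, 0.114 and 0.224 in vehicle at 20% O2, 0.0799, 0.0596 and 0.0682 in vehicle at 1% O2, and 0.183, 0.187 and 0.220 with 32-134D. Its hypoxic values lay below all others, and the remaining groups overlapped. The geometric mean ratio of PINK1 to BNIP3 went from 1.51 to 0.210 in hypoxia and stood at 0.808 with 32-134D. That of BCL2L13 to BNIP3 went from 1.47 to 0.134 and stood at 0.835, and that of PHB2 to PGAM5 was 2.58, 1.92 and 2.18 in the 3 groups. In each of the 10 comparisons of these 5 ratios the 3 libraries did not overlap, with a p of 0.1 in a two-sided exact permutation test, also after adjustment over the 10. With 3 against 3 libraries 0.1 is the smallest p this test can give, so none could pass a threshold of 0.05.

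**Figure D3:**
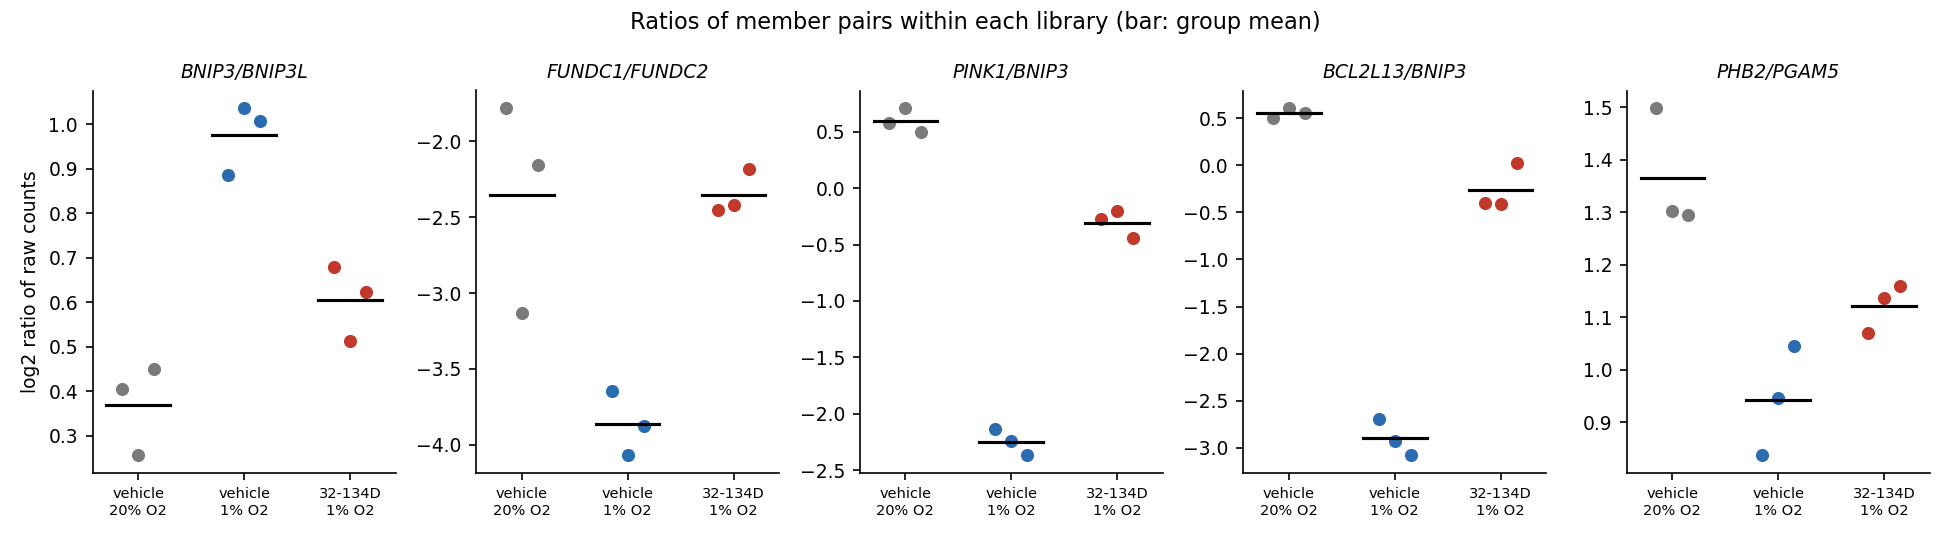
Log2 ratio of raw counts (y axis, a separate range in each panel) of 5 member pairs within each library (points) of the 3 groups (x axis), with group means as bars. In every pair the vehicle libraries at 1% O2 do not overlap either other group.

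Levels were compared between members per length, as TPM (counts per base of summed exon, scaled to the same total in every library). TPM was not scaled by the TMM method, so the order of members is read within each group. Between groups it can depart from CPM. The PHB2 ranges in vehicle at 20% and 1% O2, for example, overlapped in CPM but not in TPM (408 to 441 and 334 to 353). In vehicle at 20% O2, PHB2 was the most abundant at 423 TPM (range 408 to 441), followed by PGAM5 at 104 TPM (98.7 to 108). PINK1 stood at 30.8 TPM and FUNDC1 at 27.4 TPM, where the range of FUNDC1, 15.8 to 39.1, took in PINK1 and every lower member. BCL2L13, BNIP3, FUNDC2 and BNIP3L lay between 17.7 and 18.9 TPM with overlapping ranges, so their order is not resolved at this length. With the longest transcript in place of summed exons, BNIP3 (23.2 to 25.7 TPM) lay above BNIP3L (15.2 to 16.5). In vehicle at 1% O2, the order was PHB2 (345 TPM), BNIP3 (230.3), BNIP3L (144), PGAM5 (114), FUNDC2 (59.6), PINK1 (53.3), FUNDC1 (30.1) and BCL2L13 (21.4), and the ranges of no neighbours overlapped. With 32-134D, PHB2 (403 TPM) and PGAM5 (117) again led. BNIP3 (36.2), PINK1 (32.5), BNIP3L (29.5) and FUNDC1 (27.9) followed, where the ranges of neighbours overlapped and those of BNIP3 and FUNDC1 did not, then BCL2L13 (21.0) and FUNDC2 (19.5), which overlapped each other. By the longest transcript BNIP3 (41.8 to 50.0 TPM) lay clear of PINK1 (24.7 to 34.7) with 32-134D. In vehicle at 1% O2, FUNDC1 (22.9 to 28.4) and BCL2L13 (22.7 to 25.4) overlapped by that length.

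As shares of the 8 members per length, BNIP3 made up 2.82% ± 0.202 (SD, n = 3) in vehicle at 20% O2, 23.1% ± 1.19 in vehicle at 1% O2 and 5.29% ± 0.693 with 32-134D. BNIP3L made up 2.70% ± 0.174, 14.5% ± 0.345 and 4.31% ± 0.660 in the same order. The share of PHB2 went the other way, 64.3% ± 0.882, 34.6% ± 0.184 and 58.6% ± 2.40, although its own CPM did not pass the test. The summed CPM of the 8 was 559 ± 20.5 (SD, n = 3) in vehicle at 20% O2, 1325 ± 84.3 in vehicle at 1% O2 and 617 ± 5.81 with 32-134D.

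**Figure D4:**
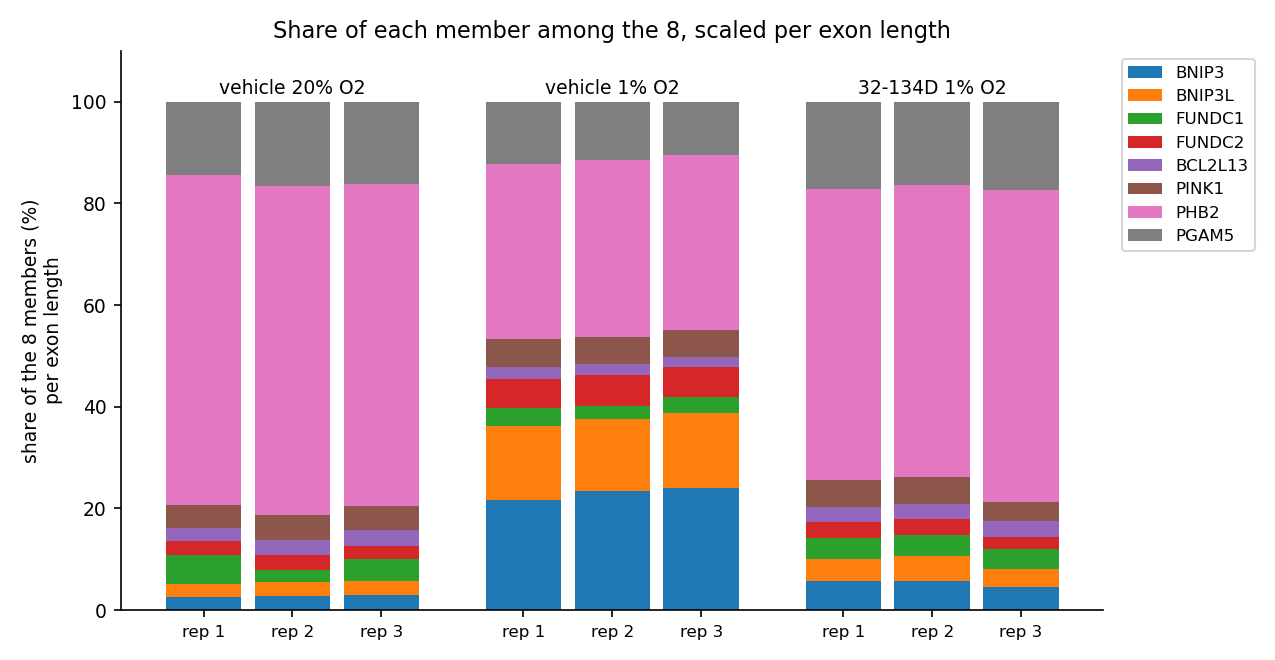
Share of each member in the summed per-length level of the 8 (y axis, percent) in each library (x axis, replicates 1 to 3 of each group). BNIP3 and BNIP3L take 23.1% and 14.5% on average in vehicle at 1% O2, against 2.82% and 2.70% in vehicle at 20% O2.

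The 4 members called in hypoxia were set beside all 11133 other genes with a mean of at least 5 CPM, by the root mean square difference of their centred log2 CPM over the 9 libraries. Nearest to BNIP3 were EFNA1 (0.108), an ephrin ligand, ENO2 (0.135), an enolase, and NDRG1 (0.184). Nearest to BNIP3L were CITED2 (0.105), a transcriptional regulator that competes with HIF-1α for CBP/p300, FAM162A (0.130) and RIT1 (0.137), a small GTPase. FUNDC2 was nearest to the glycolytic genes GAPDH (0.0730), ENO1 (0.0927) and PFKFB3 (0.107). GAPDH, for example, had log2 fold changes of 1.94 in hypoxia and −1.74 with 32-134D, beside 2.01 and −1.86 for FUNDC2. Nearest to PINK1 were XKR8 (0.0629), a phospholipid scramblase, UNC119 (0.0641) and OARD1 (0.0649). Among the members, BCL2L13 and PGAM5 lay closest at 0.0469, while BNIP3 and BNIP3L lay 0.261 apart. These distances describe 9 libraries that fall into 3 groups, and each gene would be near any other with like differences between the groups.

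Of 59 other mitophagy genes tested, in 6 lists, hypoxia raised 26 and lowered 5 (19.5% and 20.3% of all genes), and 32-134D lowered 17 and raised 3 (13.7% and 16.2% of all genes). The median log2 fold change over the 59 was 0.47 in hypoxia and −0.35 with 32-134D. The lists were also chosen with earlier results of these data known, so these contrasts with all genes are descriptive. Under scaling by total library size the counts were 19 higher and 7 lower in hypoxia, and 6 higher and 9 lower with 32-134D, so the split with 32-134D depends on the scaling. Without replicate 3 of vehicle at 1% O2, 5 were higher with 32-134D. The shares of all genes given here, with TMM scaling, also stand beside the counts of each list below.

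The LC3 and GABARAP proteins are the partners that the receptors bind. Hypoxia raised 6 of 7 and lowered 0 (median log2 fold change 1.80), and 32-134D lowered 5 and raised 0 (median −1.02). GABARAPL1 held 10.7, 12.2 and 12.7 CPM in vehicle at 20% O2, 98.9, 95.2 and 82.9 CPM in vehicle at 1% O2, and 33.5, 31.3 and 32.5 CPM with 32-134D. Its groups did not overlap, with log2 fold changes of 2.95 in hypoxia (SE 0.10, edgeR FDR 1.55e-11) and −1.51 with 32-134D (SE 0.09, edgeR FDR 9.20e-09). MAP1LC3A, at 1.19 ± 0.236 (SD, n = 3), 4.44 ± 0.422 and 1.59 ± 0.395 CPM in the 3 groups, was called in both comparisons (edgeR FDR 5.08e-06 and 3.52e-05). MAP1LC3B2, at most 2.97 CPM in any library, had a log2 fold change of 2.30 in hypoxia, but its value is uncertain because MAP1LC3B is nearly identical in sequence and reads may have been shared between them. MAP1LC3C, at 0.135, 0.154 and 0.0378 CPM on average, was the member not called in hypoxia.

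The ubiquitin-binding cargo adaptors and TBK1, the kinase that activates them, had 6 of 7 genes raised in hypoxia and 0 lowered (median log2 fold change 1.21), and 5 lowered by 32-134D (median −0.78). OPTN, an adaptor of the PINK1 branch, held 52.9, 56.2 and 53.5 CPM in vehicle at 20% O2, 141, 151 and 162 CPM in vehicle at 1% O2, and 61.9, 58.7 and 45.8 CPM with 32-134D. The hypoxic libraries lay above the others, which overlapped only through replicate 3 of 32-134D. The log2 fold changes were 1.49 in hypoxia (edgeR FDR 1.45e-08) and −1.45 with 32-134D (edgeR FDR 4.23e-08). SQSTM1, or p62, rose from 703 ± 18.8 (SD, n = 3) to 1773 ± 20.2 CPM in hypoxia, and stood at 1030.3 ± 131 CPM with 32-134D. CALCOCO2 had a log2 fold change of 1.28 in hypoxia, and NBR1 had −0.81 with 32-134D.

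In the ubiquitin branch around PINK1, hypoxia raised 8 of 16 genes and lowered 0 (median log2 fold change 0.53), or raised 5 with scaling by total library size or upper-quartile factors, and 32-134D lowered 5 and raised 0 (median −0.41), or lowered 1 and raised 0 with scaling by total library size. VDAC2, a channel of the outer membrane, held 46.1, 44.1 and 42.9 CPM in vehicle at 20% O2, 106, 112 and 111 CPM in vehicle at 1% O2, and 60.5, 56.9 and 61.1 CPM with 32-134D. Its groups did not overlap, with log2 fold changes of 1.31 in hypoxia (SE 0.07, edgeR FDR 1.57e-09) and −0.88 with 32-134D (SE 0.07, edgeR FDR 1.36e-07). MARCHF5, a ubiquitin ligase of the outer membrane, had a log2 fold change of 1.17 in hypoxia (edgeR FDR 1.12e-08), and MUL1, another such ligase, had 0.94 (edgeR FDR 1.33e-07). TOMM7, a small subunit of the import complex that helps to hold PINK1 on damaged mitochondria, had −0.75 with 32-134D (edgeR FDR 4.09e-06).

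Of the other receptors, 0 of 9 tested were raised in hypoxia and 3 were lowered (19.5% and 20.3% of all genes). With 32-134D 3 were raised and 0 lowered (16.2% and 13.7% of all genes). Their median log2 fold change was −0.16 in hypoxia and −0.18 with 32-134D, the latter opposite in sign to the 3 calls, and SPATA18 was listed but had too few counts to be tested. The 3 genes were the same in both comparisons. DISC1 held 5.20 ± 0.768 CPM (SD, n = 3) in vehicle at 20% O2, 1.31 ± 0.0794 in vehicle at 1% O2 and 5.64 ± 1.45 with 32-134D (log2 fold changes −2.01 and 2.09, edgeR FDR 1.93e-06 and 1.52e-06). CHDH, choline dehydrogenase, held 128 ± 12.8, 66.3 ± 2.64 and 107 ± 8.62 CPM (log2 fold changes −0.95 and 0.69). SPATA33 had log2 fold changes of −1.12 and 0.69.

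Among 10 kinases, phosphatases and genes of receptor turnover, hypoxia raised 5 and lowered 1 (median log2 fold change 0.62), or raised 2 with scaling by total library size or upper-quartile factors and 3 with the stricter low-count filter of edgeR, and 32-134D lowered 1 (median −0.28), or lowered 0 and raised 1 with scaling by total library size. Without replicate 1 of vehicle at 20% O2 the count raised in hypoxia was 3, and without replicate 2 of 32-134D the count lowered by the compound was 2. Over all genes, with TMM scaling, 19.5% were higher and 20.3% lower in hypoxia, and 13.7% were lower with 32-134D. RHEB, a GTPase that is recruited to mitochondria with BNIP3L, went from 40.9 ± 6.13 (SD, n = 3) to 100.2 ± 4.09 CPM in hypoxia and stood at 60.8 ± 0.440 with 32-134D (log2 fold changes 1.28 and −0.72, edgeR FDR 2.45e-08 and 9.88e-06). PPTC7, which promotes the turnover of BNIP3 and BNIP3L, had a log2 fold change of 1.02 in hypoxia (edgeR FDR 7.60e-08), and CSNK2A1, a catalytic subunit of CK2, had 0.78 (edgeR FDR 1.52e-07). ULK1, a kinase that starts autophagy and phosphorylates FUNDC1, had log2 fold changes of 0.26 and −0.01 and was called in neither comparison.

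Of 10 fission, fusion and transport genes, hypoxia raised 1 and lowered 1, and 32-134D lowered 1, or lowered 0 and raised 2 with scaling by total library size, with upper-quartile scaling or without replicate 3 of vehicle at 1% O2. With TMM scaling these counts did not exceed the shares of all genes. Those were 19.5% higher and 20.3% lower in hypoxia, and 13.7% lower with 32-134D. RHOT1 and RHOT2, paralogous GTPases that tether mitochondria to microtubule motors, moved in opposite directions in hypoxia. RHOT1 held 23.2, 24.3 and 25.2 CPM in vehicle at 20% O2 and 46.8, 46.1 and 45.9 CPM in vehicle at 1% O2 (log2 fold change 0.93, edgeR FDR 2.99e-07). RHOT2 held 112, 110.2 and 106 CPM against 54.7, 57.9 and 65.3 CPM (log2 fold change −0.88, edgeR FDR 1.79e-07). Neither pair of groups overlapped. MIEF2 was the gene lowered by 32-134D (log2 fold change −0.66, edgeR FDR 1.06e-04), and it was not called without replicate 3 of 32-134D, without replicate 3 of vehicle at 1% O2, or with total library size or upper-quartile scaling.

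Between 32-134D at 1% O2 and vehicle at 20% O2, 4 of the 59 genes were called, all higher. Over all genes tested 3% were called higher and 0.516% lower, so most calls of this comparison were higher. The 4 genes were GABARAPL1 (log2 fold change 1.45, edgeR FDR 4.01e-07), MAP1LC3B (0.93, edgeR FDR 4.68e-05), MAP1LC3B2 (1.29, edgeR FDR 0.0179) and TBK1 (0.62), the last, with MAP1LC3B, named after its value was seen. TBK1 lay close to the threshold of 1.5 at 1.54-fold (SE of the log2 value 0.09). Upper-quartile scaling moved the median of all genes by −0.07 in this comparison. MAP1LC3B2 had only 3 to 14 reads per library in vehicle at 20% O2.

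**Figure D5:**
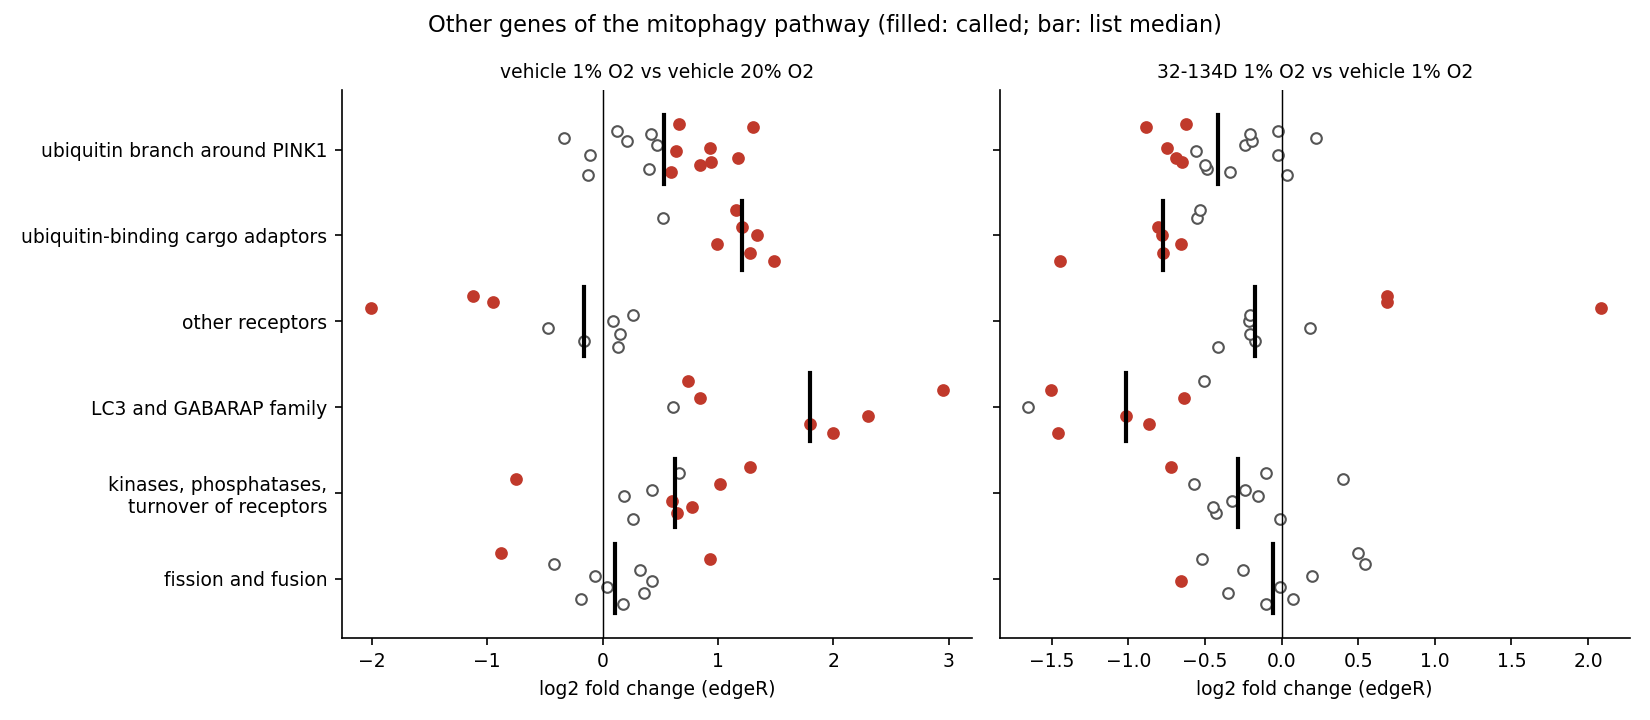
Log2 fold changes (x axis) of the 59 other mitophagy genes tested, by list (y axis), in hypoxia (left) and with 32-134D at 1% O2 (right). Filled points passed both thresholds and bars are list medians, which lie at 1.80 and −1.02 for the LC3 and GABARAP family and at 1.21 and −0.78 for the cargo adaptors.

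Pseudogene copies could take reads from BNIP3 and FUNDC2. Of 39 BNIP3 copies listed, 6 had a count, with 201 reads in all against 39096 on BNIP3, and 185 of them were on BNIP3P1 (log2 fold changes 3.16 and −2.85). Of 4 FUNDC2 copies 2 had a count, with 138 reads on FUNDC2P1 (1.40 and −2.03) and 23667 on FUNDC2. The single copies of PGAM5 and PHB2 had 0. Other genes on the opposite strand held few reads beside the member they overlap, 156 on F8 (FUNDC2) and 541 on SDAD1P1 and 75 on PNMA2 (BNIP3L, 20990 reads).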

How the data were processed

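RNA-seq was made from 9 Hep3B cultures in 3 groups. The authors deposited raw counts per Ensembl gene, without normalization. They trimmed reads with Bbduk, mapped them with STAR to Ensembl release 100 and counted them with featureCounts. Tool versions and the strand setting are not given in the sources used here. Columns were matched to samples by the names in the labels, and 0 were left unmapped.

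Counts were compared in 1 edgeR 4.0.16 quasi-likelihood fit (R 4.3.3) of the 9 libraries with TMM scaling, over the 22672 genes whose counts reached a sum of 10 (common biological coefficient of variation 10.5%). Adjusted p-values are Benjamini-Hochberg FDRs over all genes tested, with calls at an FDR below 0.05 and a fold change above 1.5. Intervals are 95%. Centred log2 CPM used a prior count of 2. Positions and lengths came from GENCODE 29. Ratios were tested with scipy 1.17.1. The edgeR fit was also run on simulated counts in which few genes were changed, with rises and falls drawn alike. In these data 19.5% of all genes were called higher and 20.3% lower in hypoxia. That run therefore cannot test how the scaling acts here. The study calls the cultures of a group biological replicates, but the labels do not say whether they came from separate experiments. The p-values therefore measure only the spread between these cultures, and counting error is largest in the library with 6013980 counts. No 2 libraries of a group were duplicates (chi-square per degree of freedom at least 1.62).

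The members and lists were chosen with earlier results of these data known, and 1 gene of the lists is not reported here. Genes named are the members, up to 3 genes of each list with the largest change among those called in hypoxia and up to 2 with 32-134D, the 3 genes nearest each called member, and copies and antisense partners. Others were named after their values were seen (ULK1, TBK1, MAP1LC3B and MAP1LC3C, the markers and the overlapping genes). Alternatives were other scalings and filters, DESeq2 1.42.0, fits of 2 groups, thinning, a replicate block, other fold change thresholds, other lengths, leaving out each library and, chosen after seeing the data, leaving out the 2 libraries that stood apart.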

Additional observations from a re-analysis of the deposited data

How the results depend on the processing

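The 4 members called in each of the hypoxia and 32-134D comparisons kept direction and call under every alternative run at the 1.5-fold threshold (with a fold change above 2, PINK1 was not called with 32-134D and 3 members were), with log2 fold changes of 3.68 to 3.98 for BNIP3 in hypoxia, −2.62 to −2.35 for BNIP3L with 32-134D, and 0.85 to 1.09 and −1.04 to −0.77 for PINK1 in the 2 comparisons. Of the member fold changes under alternatives, 433 kept direction and call, 22 turned sign and 1 gained a call, all of the latter 2 kinds in PHB2 and FUNDC1, which are not called. In hypoxia, PHB2 stood at −0.238 with total library size and −0.216 with upper-quartile factors, turned to 0.00571 without a filter and ranged from −0.0773 to 0.0240 over fits that left out 1 library. With 32-134D it turned to 0.0293 (median-of-ratios factors and DESeq2), 0.0323 (filterByExpr), 0.0356 (2 groups only), 0.0244 (thinned), 0.0923 (upper-quartile) and 0.159 (total library size), and ranged from −0.0823 to 0.0659 without single libraries. Against vehicle at 20% O2, FUNDC1 turned to 0.00171 (median-of-ratios factors), 0.00810 (no filter), 0.0497 (thinned) and 0.0157 (DESeq2), and ranged from −0.21 to 0.32, and PHB2 from −0.107 to 0.00700. FUNDC1 in hypoxia ranged from 0.135 (total library size) to 0.62. The count of members raised in hypoxia was 4 to 5 without single libraries and 6 with no fold threshold. The cause of these changes was not tested. With a fold change above 2, 0 members were called higher against vehicle at 20% O2, where BNIP3 stood at 1.97-fold and BNIP3L at 1.70-fold. Without single libraries the log2 fold change of BNIP3 there ran from 0.93 to 1.06, a range that takes in 2-fold. For the 59 other genes in hypoxia, 13 were higher and 2 lower with a fold change above 2. With no fold threshold 36 were higher and 8 lower. Without single libraries 23 to 26 of the 59 were higher in hypoxia. With 32-134D they were 1 higher and 4 lower with a fold change above 2, 8 and 38 with no fold threshold, 6 and 9 with total library size, and 5 and 11 with upper-quartile factors, and 3 to 5 higher and 14 to 19 lower without single libraries. Of all genes called in either direction, 34.5% were higher in hypoxia with total library size (49.0% with TMM) and 72.0% with 32-134D (54.2%). In their deviations from the group means, same-numbered libraries correlated from −0.22 to 0.09 and differently numbered ones from −0.20 to 0.26. With 3 libraries a group this cannot tell whether replicate numbers pair the samples. The replicate block changed no call of a member and no count of calls in the 59 genes (26 and 5, 17 and 3), with BNIP3 at 3.89 and −2.92, and turned FUNDC1 to 0.0434 against vehicle at 20% O2. The exact test of ratios paired by number gave a p of 0.25, the smallest it can give. The longest transcript in place of summed exons moved 19 of 24 levels beyond the SD, such as BNIP3 from 230.3 to 296 TPM in vehicle at 1% O2.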
